A study of Mus musculus with 17 samples.

Results

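The serpins are a superfamily of protease inhibitors, and their genes were followed here in mammary glands, taken whole from nulliparous females of the C57Bl/6 strain. The members are the loci of the deposited expression table that carry 1 symbol of their own starting with Serpin. There were 59 such loci among 30843 in all, of which 20420 had 1 own symbol. The study compared 4 genotypes. AROM mice carried a tet-op-CYP19A1 transgene, the human gene of aromatase, with MMTV-rtTA. CERM mice carried tet-op-Esr1, the gene of estrogen receptor alpha, with the same MMTV-rtTA driver. BRCA mice were homozygous for the floxed exon 11 allele of Brca1 (Brca1 fl11/fl11), carried MMTV-Cre and had 1 functional Trp53 allele (p53+/-). The controls (WT) were wild type for all of them. The MMTV promoter is active mainly in mammary epithelium, so the changes that it drives act in a fraction of the cells that a whole gland holds. The p53+/- genotype of the BRCA mice is not driven by it.

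Serpins are folded in a strained state with an exposed reactive centre loop that a target protease takes for a substrate. Cleavage of the loop lets the serpin snap into a relaxed fold that traps and distorts the protease, so each molecule acts once. Clade A members such as antitrypsin and antichymotrypsin are secreted and are best known as plasma proteins of the liver and of the acute phase response, clade B members are mostly intracellular and guard cells against granule and lysosomal proteases, and clade E members restrain plasminogen activators and thrombin. Some members, among them maspin, the pigment epithelium-derived factor and the collagen chaperone of the endoplasmic reticulum, do not act as protease inhibitors in the usual way.

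The labels list 17 polyadenylated RNA libraries, 8 single-end and 9 paired-end, with 5 of AROM, 5 of CERM, 4 of BRCA and 3 of WT. The authors deposited 1 value per locus for each genotype and read layout, as FPKM, a read density corrected for the length of the transcript and the size of the library, so 8 columns carry the data and none shows the spread between mice. No difference below was tested, and the depth of each column is unknown. Libraries were sequenced single-end and paired-end, and whether the layouts hold the same libraries is not settled. The layouts are therefore not treated as replicates of each other. Where a pair of values is given, the single-end value stands first and the paired-end value second. Fold changes are log2 ratios of FPKM + 1, which understates the change of low genes, and a gene was called at 2-fold or more. Both WT columns hold repeating decimals as of means of 3 values (54.3% of the single-end and 51.8% of the paired-end loci), as many as the WT libraries in the labels, so they may draw on the same mice. Between layouts the median gene differed 1.22-fold in AROM, 1.12-fold in CERM, 1.04-fold in BRCA and 1.11-fold in WT. Among the serpins kept below, the median gap was 1.27-fold, 1.37-fold, 1.03-fold and 1.14-fold in the same order. In CERM 2 of them, Serpina1b and Serpina1e, were past 2-fold between layouts (2.58% of all genes). In AROM, BRCA and WT 0 were (2.03%, 1.45% and 1.75%).

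The engineered genes do not settle the labels. Esr1 was measured at 8.49 and 8.41 FPKM in CERM, close to 8.41 and 7.87 in AROM and not far above 7.27 and 6.89 in WT. Brca1 was at 3.28 and 3.29 FPKM in BRCA, against 1.13 and 0.851 in WT, which says nothing of exon 11 itself since the value covers the entire gene. Trp53 was at 12.3 and 12.1 FPKM in BRCA, against 41.1 and 34.5 in WT. The human CYP19A1 transgene has no row used here, and the mouse Cyp19a1 row was at 0.0591 and 0.0502 FPKM in AROM, with every CERM, BRCA and WT column at 0. Ncl, a gene every cell uses, is itself listed at 0 in the single-end WT column, so a 0 in the table need not mean that RNA was absent. Genotype names below are those of the labels. Mammary epithelium was present by its markers: all 8 luminal epithelial markers in the table were measured, with summed levels of 449 and 263 FPKM in AROM, 639 and 586 in CERM and 939 and 929 in BRCA, against 929 and 747 in WT, beside the adipocyte sums given further on.

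Of the 59 serpins, 18 reached at least 1 FPKM in at least 2 of the 8 columns, a filter that 12188 genes passed. These were 5 of 21 clade A members, 8 of 27 of clade B, and 5 of clades E to H. Clades C, D and I had none. A few genes carried most of the serpin signal. Serping1, Serpinf1, Serpinh1 and Serpinb6a together made up between 71.6% and 85.6% of the summed serpin FPKM of a column. The sum over all 59 was 877 and 822 FPKM in AROM, 719 and 1061 in CERM and 762 and 755 in BRCA, against 669 and 549.8 in WT. WT thus had the lowest serpin total of each layout, and the highest total was that of AROM in the single-end and of CERM in the paired-end columns.

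**Figure D1:**
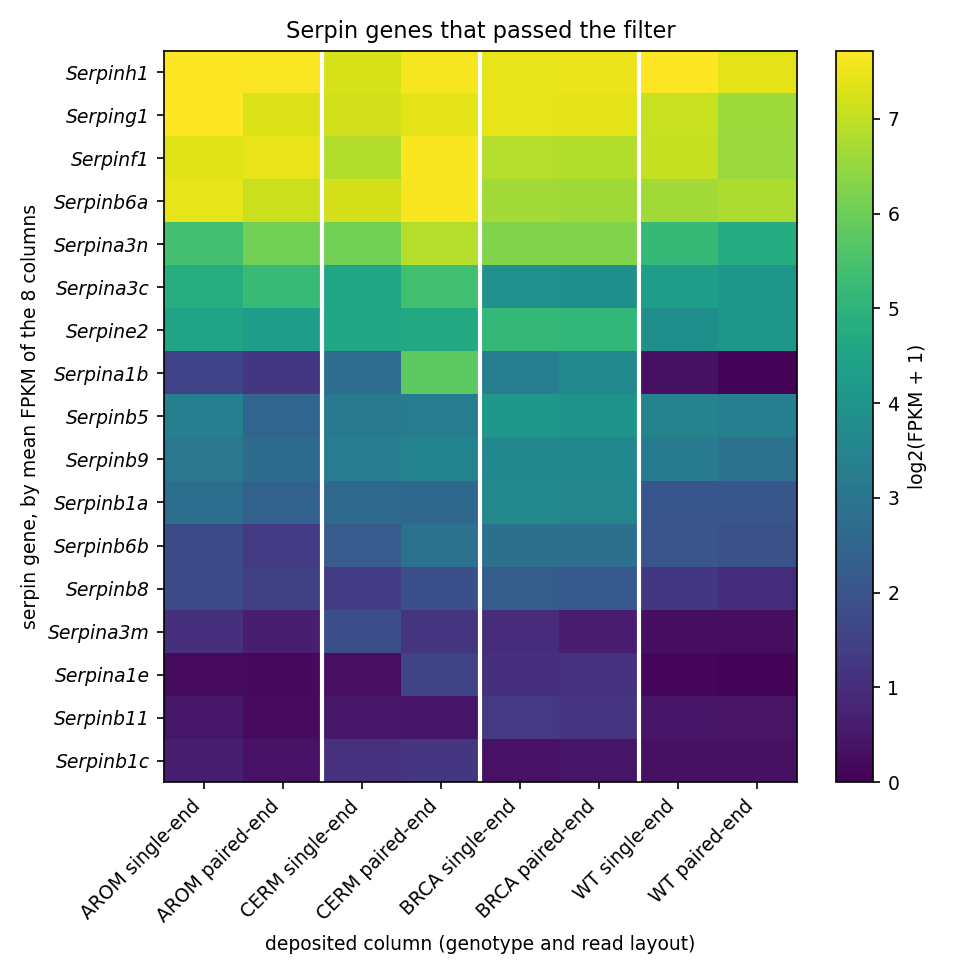
Heat map of log2(FPKM + 1) of serpins that passed the filter, with genes in rows by mean FPKM and the 8 deposited columns across, grouped by genotype. Serpinh1, Serping1, Serpinf1 and Serpinb6a form the bright upper rows, and Serpina1b varies most along its row, with 0.0588 to 53.7 FPKM.

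Against WT, every serpin past 2-fold was on the higher side. In AROM, 1 of 18 passed in the single-end columns, where 3.99% of all genes passed in either direction, and 3 in the paired-end columns, where 4.77% did. The median of the 18 was 0.32 and 0.33 on the log2 scale, beside 0.00 and -0.08 over all genes. In CERM, 3 passed in the single-end columns (4.65% of all genes) and 6 in the paired-end columns (4.63%). The median of the 18 was 0.23 and 0.88 on the log2 scale, beside -0.04 and 0.04 over all genes. In BRCA, 6 passed in the single-end columns (5.52% of all genes) and 7 in the paired-end columns (6.31%). The median of the 18 was 0.75 and 0.79 on the log2 scale, beside 0.04 and 0.11 over all genes. Genes of any kind on the higher side numbered 283 and 244 of 12188 in AROM, 443 and 459 in CERM, and 441 and 613 in BRCA. No serpin was at least 2-fold lower than WT in these 6 comparisons, where 1.67% and 2.77% of all genes were lower in AROM, 1.02% and 0.862% in CERM and 1.90% and 1.28% in BRCA. The comparisons share the WT columns, so they are not independent of each other.

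**Figure D2:**
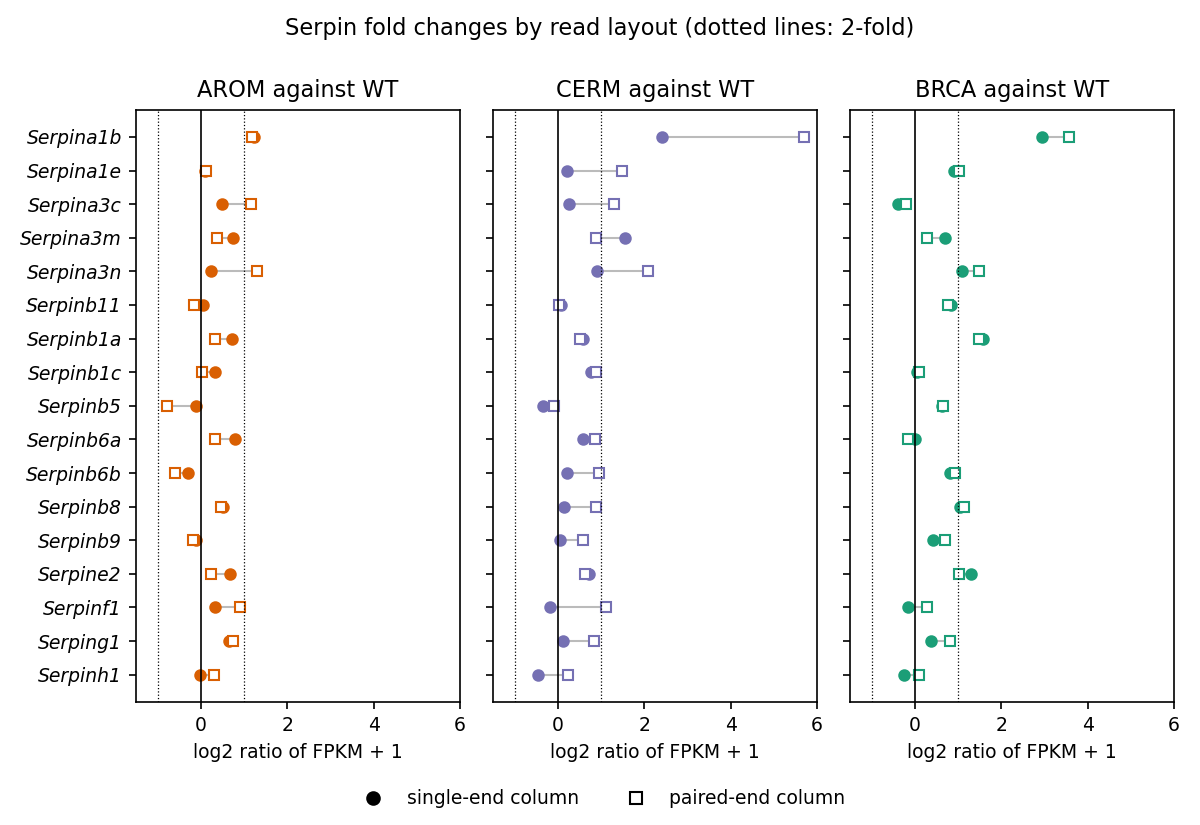
Log2 ratio of FPKM + 1 against WT for serpins that passed the filter in AROM, CERM and BRCA, in both read layouts, with the 2-fold threshold marked. Points past the threshold lie on the higher side only, and Serpina1b in paired-end CERM is the highest at 5.69.

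In AROM the calls against WT were all of clade A, Serpina1b in both layouts with Serpina3c and Serpina3n added in the paired-end columns. Those of CERM included Serpina1b and Serpina3m in the single-end columns, and Serpina1b, Serpina1e, Serpina3c, Serpina3n and Serpinf1 in the paired-end columns. In BRCA, Serpina1b, Serpina3n, Serpinb1a, Serpinb8 and Serpine2 were among those called in both layouts, and Serpina1e was added in the paired-end columns. Members that passed only where they are high had to differ, so these counts describe the 18 and not all 59.

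The antitrypsin genes of clade A share much of their sequence. Antitrypsin inhibits neutrophil elastase, and C57Bl/6 mice carry several near-identical copies on chromosome 12 (20 of the 21 clade A members lie there in the mouse build GRCm38, and 1 on X). Over a coding length of 1239 bases, Serpina1b was 96.6% identical to Serpina1c, 96.5% to Serpina1d and 96.3% to Serpina1e in GENCODE M21 transcripts of that build. The stretch that codes for the reactive centre loop, the bait that sets which protease is caught, is shown here because the copies differ in level in the deposited table. Capitals mark positions at which at least 1 of the 5 copies differs, 17 of 72 bases. Each sequence runs 5′ to 3′ on the coding strand.
Serpina1a: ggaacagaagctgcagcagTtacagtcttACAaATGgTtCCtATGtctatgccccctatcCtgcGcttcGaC
Serpina1b: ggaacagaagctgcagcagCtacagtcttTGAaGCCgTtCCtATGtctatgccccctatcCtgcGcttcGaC
Serpina1c: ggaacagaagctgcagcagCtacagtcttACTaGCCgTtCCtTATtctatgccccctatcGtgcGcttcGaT
Serpina1d: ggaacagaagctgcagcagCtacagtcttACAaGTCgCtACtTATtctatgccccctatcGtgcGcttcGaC
Serpina1e: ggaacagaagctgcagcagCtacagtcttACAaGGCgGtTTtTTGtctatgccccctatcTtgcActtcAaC
From Serpina1b, the stretch differs at 6 bases in Serpina1a, 8 in Serpina1c, 9 in Serpina1d and 10 in Serpina1e. Along the whole longest coding transcript, 35.8% of the 50-base stretches of Serpina1b and 35.6% of those of Serpina1e also occur in another annotated gene, most often Serpina1d. Reads from those stretches cannot be assigned by sequence alone.

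As a ratio of its highest to its lowest column, Serpina1b varied most of the serpins that passed the filter. It had 1.96 and 1.39 FPKM in the AROM columns, 5.78 and 53.7 in the CERM columns and 8.81 and 11.6 in the BRCA columns, against 0.272 and 0.0588 in the WT columns. Both WT columns lay below every other column, with the paired-end CERM column far above the rest. Log2 fold changes against WT were 1.22 and 1.17 in AROM, 2.41 and 5.69 in CERM and 2.95 and 3.57 in BRCA. The CERM columns of the same genotype were themselves 3.01 log2 units apart, so the size of the CERM value rests on the layout, while all 6 values passed 2-fold.

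Serpina1e had 0.160 and 0.154 FPKM in the AROM columns, 0.253 and 1.97 in the CERM columns and 1.05 and 1.16 in the BRCA columns, against 0.0885 and 0.0642 in the WT columns. It was near or above 1 FPKM in the BRCA columns and in the paired-end CERM column, and it passed 2-fold against WT in the paired-end columns of CERM (1.48 log2) and BRCA (1.02). In the single-end columns the same values were 0.20 and 0.91, under the threshold, and after median-ratio scaling the paired-end BRCA value was 0.96. These calls depend on the value added before the log, since with 0.1 in place of 1 FPKM single-end BRCA passed at 2.61. The remaining antitrypsin copies stayed under the filter. Serpina1a reached 1.19 FPKM in the paired-end CERM column and at most 0.338 elsewhere, Serpina1d was highest in that same column at 0.761 FPKM, and Serpina1c was highest in the paired-end WT column at 0.862. Serpina1f was listed at 0 in all 8 columns. Serpina1a, Serpina1b, Serpina1d and Serpina1e were thus each highest in the paired-end CERM column, and how their shared reads were divided was not tested.

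Antitrypsin is foremost a liver product, so liver markers were read beside it. All 10 listed hepatocyte genes were in the table and 5 passed the filter. Summed over the 10, the level was 111 and 348 FPKM in AROM, 158 and 113 in CERM and 84.8 and 80.3 in BRCA, against 120.1 and 107 in WT, most of it Cyp2e1, which adipose tissue also expresses. Albumin (Alb) was at 6.54 and 11.9 FPKM in AROM, 3.09 and 2.76 in CERM and 2.74 and 2.57 in BRCA, against 6.93 and 3.72 in WT. Albumin was thus not highest where Serpina1b was. The fibrinogen chains differed from albumin. Fgg was at 0.264 and 0.333 FPKM in AROM, 2.91 and 6.32 in CERM and 1.09 and 1.12 in BRCA, against 2.07 and 1.68 in WT, and like Serpina1b it was highest in the paired-end CERM column, where it passed 2-fold against WT. Fgb was at 0.544 and 0.472 FPKM in AROM, 1.70 and 3.07 in CERM and 0.0526 and 0.0772 in BRCA, against 3.58 and 3.20 in WT, so it was highest in WT, where Serpina1b was lowest. Apoc3 was lowest in CERM, at 0.418 and 0.335 FPKM, against 3.07 and 2.42 in WT. Ttr and Fga were at most 0.264 and 0.0420 FPKM in any column. The part of liver-type transcripts in the level of Serpina1b was not tested.

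The antichymotrypsin-like genes are an expanded mouse cluster that corresponds to a single human gene. Serpina3n, its most abundant member here and an acute phase serpin that inhibits granzyme B in mouse, had 41.7 and 66.3 FPKM in the AROM columns, 66.9 and 116 in the CERM columns and 75.4 and 75.9 in the BRCA columns, against 35.1 and 26.4 in the WT columns. WT was lowest in each layout, and all 6 non-WT columns lay above both WT columns. Log2 fold changes against WT were 0.24 and 1.30 in AROM, 0.91 and 2.09 in CERM and 1.08 and 1.49 in BRCA, so BRCA passed 2-fold in both layouts while AROM and CERM did so in the paired-end columns. With WT taken as the mean of its 2 columns, an alternative added after the values were seen, single-end CERM passed as well, at 1.10.

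Serpina3c, another antichymotrypsin-like copy, ran in a different order. It had 27.0 and 36.5 FPKM in the AROM columns, 22.9 and 40.7 in the CERM columns and 14.1 and 13.5 in the BRCA columns, against 19.0 and 15.9 in the WT columns. AROM and CERM were above WT in each layout, and BRCA was below every other column. The paired-end values of AROM (1.16 log2) and CERM (1.31) against WT passed 2-fold. The single-end values were 0.49 and 0.26, and those of BRCA -0.41 and -0.21. Serpina3m had 1.06 and 0.577 FPKM in the AROM columns, 2.61 and 1.25 in the CERM columns and 0.979 and 0.487 in the BRCA columns, against 0.230 and 0.220 in the WT columns. Its CERM columns were its highest of each layout and its WT columns its lowest, and single-end CERM passed 2-fold at 1.55 log2, beside 0.88 in the paired-end columns. With 0.1 FPKM added in place of 1, paired-end CERM passed as well (2.07), as did AROM in both layouts (1.81 and 1.08) and single-end BRCA (1.71).

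Of the 50-base stretches of these genes, 19.1% of Serpina3m, 6.90% of Serpina3n and 4.25% of Serpina3c occur in another gene, and for Serpina3m that gene is most often Serpina3k, which stayed under the filter with at most 0.931 FPKM. Their loops are more distinct than those of the antitrypsin copies. The coding stretches from the start of the hinge are shown because Serpina3c and Serpina3n lay on opposite sides of WT in BRCA. Capitals mark positions at which at least 1 of the 4 genes differs, 21 of 48 bases.
Serpina3c: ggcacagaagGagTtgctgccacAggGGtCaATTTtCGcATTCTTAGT
Serpina3k: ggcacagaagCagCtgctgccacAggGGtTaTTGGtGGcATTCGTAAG
Serpina3m: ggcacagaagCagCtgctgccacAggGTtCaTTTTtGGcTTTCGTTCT
Serpina3n: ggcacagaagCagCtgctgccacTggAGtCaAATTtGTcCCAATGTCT
The hinge codons at the left are nearly alike in these sequences, from GENCODE M21 on chromosome 12 of GRCm38, and the differences gather toward the right.

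**Figure D3:**
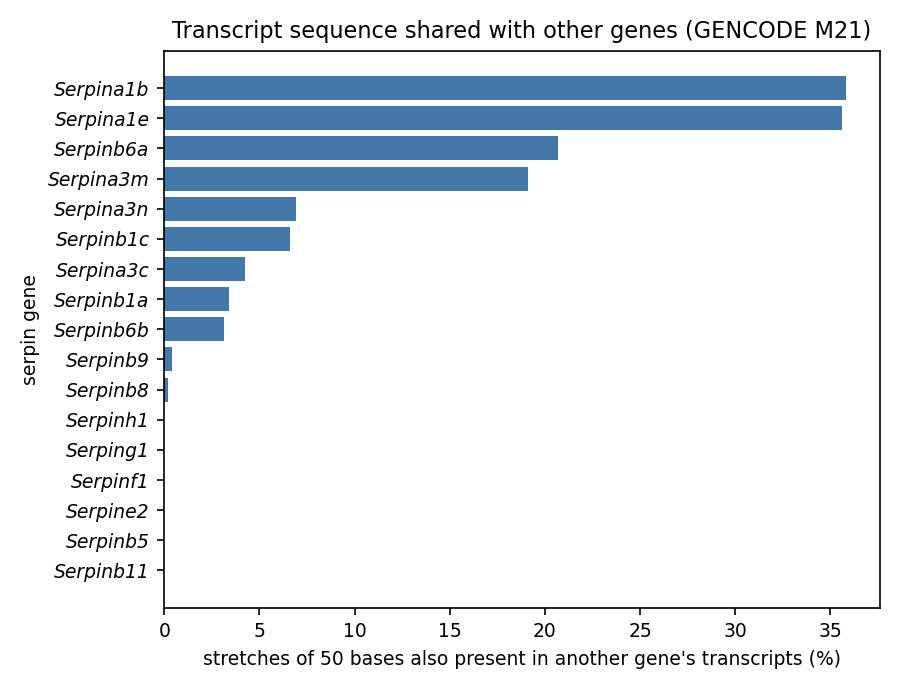
Percentage of 50-base stretches of the longest coding transcript that also occur in another annotated gene (GENCODE M21), for serpins that passed the filter. Serpina1b, Serpina1e, Serpinb6a and Serpina3m exceed 10%, and Serpinb5, Serpine2, Serping1 and Serpinh1 are among those at 0.

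The acute phase genes, which liver and epithelia make in inflammation, were counted beside the clade A serpins. Against WT, 5 of the 7 that passed the filter were at least 2-fold higher in BRCA in both layouts (Saa1, Saa2, Saa3, Hp and Lcn2), 2 and 4 in CERM, and 0 and 1 in AROM, with Orm1 at least 2-fold lower in the single-end columns of CERM and BRCA. Summed over the 8 in the table, the level was 601 and 839 FPKM in AROM, 769 and 929 in CERM and 1474 and 1369 in BRCA, against 721 and 581 in WT. Of 9 interferon-stimulated genes, 6 and 7 were at least 2-fold higher in BRCA, 5 and 5 in CERM and 1 and 1 in AROM. The part of either group in the serpin levels was not tested.

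Clade B holds the intracellular serpins, on chromosomes 1 (11 members) and 13 (15 members). Serpinb1a, an inhibitor of neutrophil elastase, cathepsin G and proteinase 3, had 5.89 and 4.24 FPKM in the AROM columns, 5.23 and 4.94 in the CERM columns and 11.4 and 10.7 in the BRCA columns, against 3.17 and 3.17 in the WT columns. BRCA stood above all other columns in both layouts, as for 29.5% of all genes, and the WT columns were the lowest, as for 5.44%. Its log2 fold change in BRCA against WT was 1.57 and 1.49, a ratio of 3.59 and 3.37 in FPKM. AROM, at 0.72 and 0.33, and CERM, at 0.58 and 0.51, did not pass. Serpinb8, which inhibits furin in human, had 2.34 and 1.76 FPKM in the AROM columns, 1.59 and 2.68 in the CERM columns and 3.86 and 3.37 in the BRCA columns, against 1.36 and 0.995 in the WT columns. BRCA was again the highest of each layout and WT the lowest, and BRCA passed 2-fold against WT at 1.04 and 1.13 log2. CERM against WT was at 0.13 and 0.88 and AROM at 0.50 and 0.47.

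Serpinb1a is abundant in neutrophils, and the sum of neutrophil markers was, like it, highest in BRCA. Of 8 in the table, 6 passed the filter, and all 6 (S100a8, S100a9, Ltf, Camp, Ngp and Retnlg) were at least 2-fold higher in BRCA than in WT in both layouts. Summed over the 8, the level was 114 and 69.4 FPKM in AROM, 146 and 135 in CERM and 422 and 388 in BRCA, against 98.7 and 92.6 in WT. Ltf held most of each sum, at 235 and 234 FPKM in BRCA and 88.1 and 86.7 in WT. In paired-end AROM the sum lay below WT while Serpinb1a lay above it, at 4.24 against 3.17 FPKM. Ltf alone was below WT there, at 59.2 against 86.7 FPKM. The other markers in the table were above WT, among them S100a8 (4.11 against 3.17) and S100a9 (4.76 against 2.01). In CERM 1 and 2 of the 6 were at least 2-fold higher, and in AROM none. In a whole gland, more cells of a type and more RNA per cell cannot be told apart, and the part of neutrophils in the level of Serpinb1a was not tested. Macrophage markers were at least 2-fold above WT for 4 and 6 of 9 in BRCA, 0 and 6 in CERM and none in AROM. In AROM, Cd14 was at least 2-fold lower than in WT in both layouts, as was Lyz2 in the paired-end columns. The macrophage sums were 649.8 and 510.2 FPKM in AROM, 804 and 1448 in CERM and 1161 and 1121 in BRCA. In WT they were 953 and 762.

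Serpinb6a, an inhibitor of cathepsin G that is widespread in tissues, was the most abundant clade B member. It had 173 and 137 FPKM in the AROM columns, 149 and 197 in the CERM columns and 99.2 and 97.3 in the BRCA columns, against 99.4 and 109 in the WT columns. BRCA was level with or below WT and below every other column, while AROM and CERM were above WT in each layout. No contrast with WT passed 2-fold, the values being 0.79 and 0.33 in AROM, 0.58 and 0.85 in CERM and near 0 and -0.16 in BRCA. The paired-end BRCA column was 2-fold lower than that of CERM, at -1.01 log2. Of its 50-base stretches, 20.7% occur in another gene.

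The other 5 clade B members that passed did not reach 2-fold against WT in any column on the scale of FPKM + 1. With 0.1 FPKM added instead, 3 of them did, Serpinb11 in BRCA (1.74 and 1.67 log2), Serpinb1c in CERM (1.77 and 1.95) and Serpinb6b in the paired-end columns of CERM (1.14) and BRCA (1.11). Serpinb11 and Serpinb1c passed the filter through that genotype alone, so their values there follow from the filter. Serpinb5 encodes maspin, a serpin of mammary epithelium that does not inhibit proteases in the usual way and was first described as a tumor suppressor of the breast. It lay at 16.1 and 14.6 FPKM in BRCA and between 4.78 and 10.04 FPKM in the other 6 columns, the lowest being paired-end AROM. Serpinb9, the inhibitor of granzyme B, lay at 11.2 and 11.1 FPKM in BRCA and between 5.57 and 10.2 in the others. BRCA was thus above all 6 other columns for both, as for 29.5% of all genes. Against WT, BRCA was higher by less than 2-fold, at 0.63 and 0.64 log2 for Serpinb5 and 0.42 and 0.68 for Serpinb9. Serpinb6b, an inhibitor of granzyme A in mouse, was lowest in AROM at 2.32 and 1.49 FPKM and reached 6.30 in paired-end CERM. Its BRCA against WT values, 0.82 and 0.92 log2, lay under the threshold.

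Serpinb11 and Serpinb1c each passed the filter through 1 genotype alone, so their high columns follow from the filter and support nothing. Serpinb11 was at 1.45 and 1.26 FPKM in BRCA and at most 0.425 elsewhere, and Serpinb1c at 1.13 and 1.35 FPKM in CERM and at most 0.568 elsewhere. Just outside the filter were Serpinb9b, with 3.05 FPKM in paired-end CERM and at most 0.406 in every other column, and Serpina1a. Luminal epithelial markers were lowest in AROM, as was Serpinb6b in both layouts and Serpinb5 in the paired-end columns. In AROM 5 and 8 of the 8 were at least 2-fold lower than in WT, in CERM and BRCA none. In CERM markers and serpin differed in direction, with the median luminal marker at -0.56 and -0.57 log2 against WT and Serpinb6b at 0.20 and 0.94, and in single-end BRCA the luminal sum was near that of WT while Serpinb6b was 2.01-fold higher in FPKM. The part of epithelial content in these serpin levels was not tested. Of 5 basal epithelial markers only Oxtr was past 2-fold against WT, lower in single-end CERM and BRCA. In AROM their median was -0.14 and -0.63 log2 against WT. Their sum there was 297 and 183 FPKM, against 351 and 271 in WT.

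**Figure D4:**
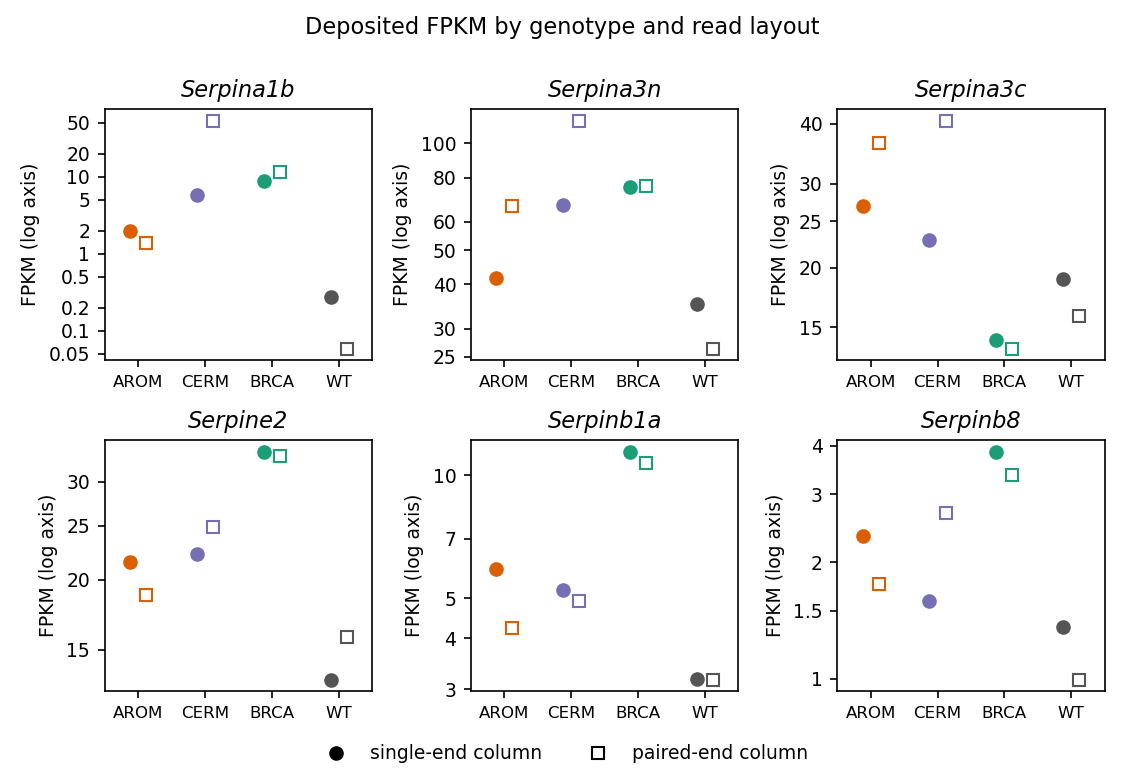
FPKM (log axis) of 6 serpins by genotype, with filled circles for single-end and open squares for paired-end columns. WT columns lie below all others for each gene but Serpina3c, where BRCA does, Serpina1b peaks in the paired-end CERM column at 53.7 FPKM, and Serpinb1a and Serpinb8 are highest in BRCA.

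In clade E, Serpine2 encodes protease nexin 1, an inhibitor of thrombin and urokinase. It had 21.5 and 18.8 FPKM in the AROM columns, 22.3 and 24.9 in the CERM columns and 34.0 and 33.3 in the BRCA columns, against 13.3 and 15.8 in the WT columns. BRCA was highest and WT lowest in each layout, with AROM and CERM between them. BRCA passed 2-fold against WT at 1.29 and 1.03 log2, and AROM (0.66 and 0.24) and CERM (0.71 and 0.63) did not. After scaling the columns by median ratios the paired-end BRCA value was 0.90, under the threshold. Serpine3 was at most 0.126 FPKM.

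The plasminogen and thrombin system, which holds proteases that Serpine2 inhibits, differed little by the same measure. Of its 8 genes that passed the filter, only thrombomodulin (Thbd), the endothelial thrombin receptor, was at least 2-fold higher than in WT, in CERM in both layouts and in AROM and BRCA in the paired-end columns. Neither Plat nor Plau, the plasminogen activators, passed in any contrast with WT. Fibroblast markers, of a cell type that also makes Serpine2, were at least 2-fold higher for 0 and 5 of 7 in CERM, 1 and 5 in BRCA and 0 and 2 in AROM. Their summed level was 1253 and 974 FPKM in AROM, 946 and 1478 in CERM and 1404 and 1366 in BRCA, against 921 and 591 in WT. Endothelial markers differed for Cldn5 alone, lower in BRCA. Their part in the level of Serpine2 was not tested.

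Serpinf1, Serping1 and Serpinh1 were abundant and differed less. Serpinf1 encodes the pigment epithelium-derived factor, a non-inhibitory secreted serpin made by adipocytes and fibroblasts. It had 162 and 175 FPKM in the AROM columns, 113 and 199 in the CERM columns and 116 and 113 in the BRCA columns, against 129 and 92.3 in the WT columns. Paired-end WT was its lowest column and paired-end CERM its highest. Against WT, CERM was at -0.20 and 1.10 log2, AROM at 0.33 and 0.91 and BRCA at -0.16 and 0.28. Only paired-end CERM passed 2-fold, and it did not with WT taken as the mean of both its columns (0.84). Median-ratio scaling brought paired-end AROM to 1.06.

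Serping1 encodes C1 inhibitor, which restrains the first complement proteases and kallikrein. It had 209 and 158 FPKM in the AROM columns, 144 and 169 in the CERM columns and 173 and 167 in the BRCA columns, against 133 and 94.3 in the WT columns. WT was the lowest in each layout, and no contrast passed 2-fold, with 0.65 and 0.73 log2 in AROM, 0.12 and 0.83 in CERM and 0.38 and 0.82 in BRCA. Among 5 complement C1 genes that passed, 1 and 3 were at least 2-fold higher in BRCA, 0 and 1 in CERM and none in AROM, with C1qb common to these counts. C1qa, C1qb and C1qc were counted among the macrophage markers as well. Serpinh1 encodes HSP47, the chaperone of procollagen. It had 205 and 204 FPKM in the AROM columns, 151 and 195 in the CERM columns and 173 and 178 in the BRCA columns, against 208 and 167 in the WT columns. Its columns spanned 151 to 208 FPKM, the narrowest relative range of the 18, and the contrasts with WT were -0.01 and 0.29 log2 in AROM, -0.46 and 0.23 in CERM and -0.26 and 0.10 in BRCA. Of 10 collagens and collagen-modifying genes, 0 and 3 were at least 2-fold higher in CERM, 1 and 3 in BRCA and 0 and 2 in AROM, among them Col1a2 and Col3a1. Col1a1, Col1a2 and Col3a1 were counted among the fibroblast markers too.

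Adipocytes are the largest cell mass of a resting gland, and their markers moved with Serpinf1, Serpina3c and Serpinb6a in some columns and not in others. The summed level of 7 adipocyte markers was 19261 and 24391 FPKM in AROM, 10708 and 15847 in CERM and 8803 and 8139 in BRCA, against 14196 and 10457 in WT. In AROM 0 and 6 of the 7 were at least 2-fold higher than in WT, in CERM 0 and 1 (Lep), and in BRCA Retn was lower in both layouts. BRCA thus had the lowest adipocyte sums as it had the lowest Serpina3c and Serpinb6a. In single-end CERM the adipocyte sum lay below WT, while Serpina3c (22.9 against 19.0 FPKM) and Serpinb6a (149 against 99.4) lay above it. Among the paired-end columns the sum was highest in AROM, and Serpina3c, Serpinb6a and Serpinf1 were highest in CERM. Serpinf1 in paired-end BRCA lay above WT (113 against 92.3 FPKM), where the sum lay below it. The part of fat content in these serpin levels was not tested. Skeletal muscle genes were at least 2-fold higher for 5 of 5 in single-end AROM and CERM and for 0 of 5 in their paired-end columns. Of 3 lymph node genes, Glycam1 and Madcam1 were at least 2-fold lower in AROM and CERM in both layouts, and in BRCA Madcam1 was lower and Cxcl13 higher in both. No skin keratinocyte gene passed the filter.

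Without a fold threshold, the order of columns showed WT at the low end. Both WT columns lay below all other 6 columns for 10 of the 18 serpins, as they did for 5.44% of all genes that passed, and above them for none (4.27% of all genes). Serpinb1c and Serpinb11 passed the filter through CERM and BRCA alone, so their place follows in part from the filter. With every such gene left out, an alternative added after the values were seen, WT was below for 9 of 16 (5.45% of all genes). Among these were Serpina1b, Serpina1e, Serpina3m, Serpina3n, Serpinb1a, Serpinb8, Serpine2 and Serping1. Serpina1b, Serpina1e and Serpina3m stayed under 1 FPKM in both WT columns, so they passed through the other genotypes alone. Their place also follows in part from the filter. Both BRCA columns lay above all others for 6 of the 18 (29.5% of all genes), and for 5 of the 16 (28.4%), Serpinb1a, Serpinb5, Serpinb8, Serpinb9 and Serpine2, a share near that of all genes. BRCA was below all others for Serpina3c and Serpinb6a (14.3%). CERM lay above all others for 2 of the 18 (5.32%), for Serpina3m alone of the 16 (4.88%), and for none with the filter applied within each layout. AROM lay below all others for Serpinb6b (14.1%). No serpin had both CERM columns below all others (3.72%) or both AROM columns above (11.7%). The layouts may share libraries, so an order kept in both is no replicate check.

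**Figure D5:**
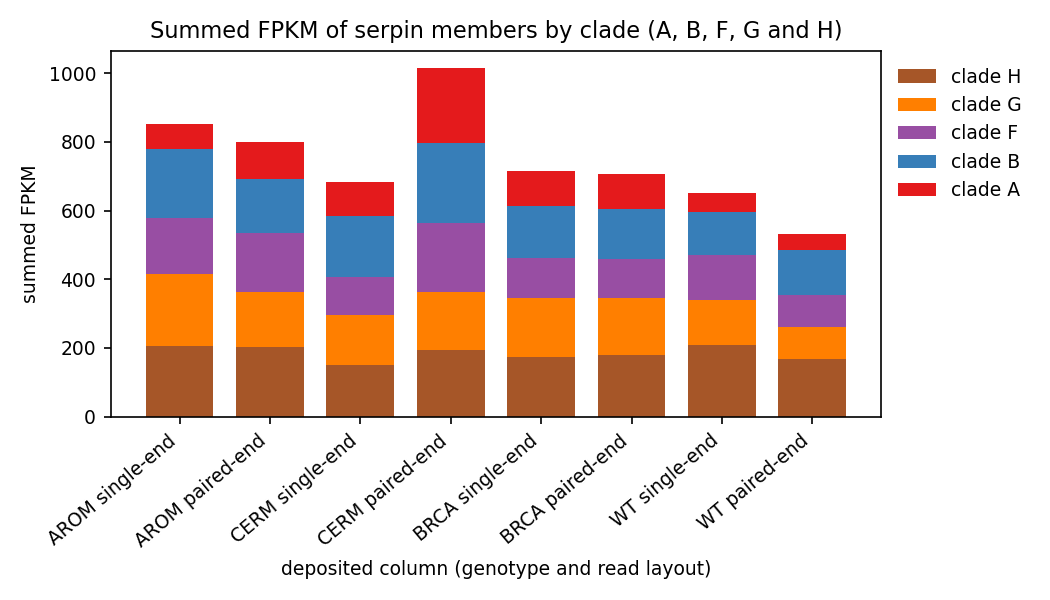
Summed FPKM of all serpins of a clade by genotype and read layout, for clades A, B, F, G and H. Clade A reaches 217 FPKM in paired-end CERM, against 44.9 in paired-end WT.

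Between the engineered genotypes, CERM exceeded AROM at 2-fold for 2 serpins in the single-end columns, Serpina1b among them (1.84% of all genes), and for 4 in the paired-end columns (4.14%), Serpina1b, Serpina1e and Serpinb6b among them. None was lower in CERM than in AROM (0.804% and 2.25% of all genes). BRCA exceeded AROM for 3 in the single-end columns (5.36%; Serpina1b and Serpinb6b among them), with none lower (3.04%), and for 5 in the paired-end columns (10.6%; Serpina1b, Serpinb1a, Serpinb5 and Serpinb6b among them), where Serpina3c was the only one lower (4.34%), at -1.37 log2. After median-ratio scaling Serpinb1a was at 0.92 in that paired-end contrast, under the threshold. BRCA and CERM differed at 2-fold for no serpin in the single-end columns, where 3.08% of all genes were higher in BRCA and 3.09% lower. That count rests on the scale. With 0.1 FPKM added in place of 1 it was 7 of 18, where 10.1% of all genes passed in either direction. Of the 7, 5 were higher and 2 lower in BRCA, among them Serpina1e (1.70 log2) and Serpina3m (-1.33). Serpinb11 (1.56) and Serpinb1c (-1.59) were counted too. They passed the filter through BRCA and CERM alone, so their difference follows from the filter. In the paired-end columns Serpina1b, Serpina3c and Serpinb6a were lower in BRCA than in CERM (2.44% of all genes) and none was higher (2.92%). The 3 lay at -2.12, -1.52 and -1.01 log2. With 0.1 FPKM added 5 were lower and 2 higher, where 9.37% of all genes passed in either direction. Serpinb11 and Serpinb1c were again among these, with the same limit.

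The proteases that serpins meet were counted on the same scale. Of 8 leukocyte and mast cell serine proteases that passed, 3 were at least 2-fold higher in BRCA than in WT in both layouts (Gzmb, Tpsb2 and Tpsab1), 2 and 1 in CERM, and 2 and 2 in AROM, with Prtn3 lower in paired-end CERM. Of 7 cysteine cathepsins, targets of a few serpins, 2 and 3 were higher in BRCA, 0 and 3 in CERM and none in AROM. Among 8 inhibitors of other families, 2 and 4 were higher in BRCA, including Slpi and Timp1. In AROM the epithelial inhibitors Spint1 and Spint2 were at least 2-fold lower in both layouts, and in CERM Slpi was lower in the single-end and Wfdc2 higher in the paired-end columns.

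The other 41 serpins stayed under the filter, 39 of them below 1 FPKM in every column. Serpina1f, Serpinb9d, Serpinb3a, Serpinb3c, Serpinb3d and Serpini2 were listed at 0 throughout. Among members with known plasma roles, Serpinc1 (antithrombin) reached 0.609 FPKM, Serpind1 (heparin cofactor II) 0.364 and Serpinf2 (antiplasmin) 0.0718. Serpina6 and Serpina7, the carriers of corticosteroids and thyroxine, reached 0.0203 and 0.00680. Serpini1, the neuronal neuroserpin, was the highest of clade I at 0.934 FPKM, and Serpina12, the adipokine vaspin, reached 0.192.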

How the data were processed

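Polyadenylated RNA libraries of whole mammary glands were sequenced on an Illumina HiSeq instrument, per the labels' protocols. Reads were checked with FastQC and trimmed with Trim Galore, and TopHat, Cufflinks and the build mm9 are named as well, per the submitters' processing notes. Versions and strand handling are not stated there. FPKM values were deposited by the authors in a single table, with 1 column per genotype and read layout. How libraries were pooled is not stated. Unnamed loci took 42.9% to 48.9% of the FPKM sum in single-end and 88.2% to 99.5% in paired-end columns, so sums were not used for scaling.

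Values were compared as deposited, as log2 ratios of FPKM + 1, and called at 2-fold, with pandas 2.3.3 and numpy 2.4.6. The filter asked for 1 FPKM or more in 2 or more of the 8 columns. Without a column per library no test was possible, and depth is unknown. The calling step was tested on simulated data. Serpins at 10 FPKM or more on average, or past 2-fold against WT, are given in every column. Members, marker lists and partner lists were chosen with earlier results of these data known, and partner genes beside counts were named after their values were seen. Names matched GENCODE M21 for 58 of 59 members. Loop sequences were cut from its longest coding transcripts (57 members had one), and stretches of 50 bases were searched in all its transcripts on both strands. Results on 1 serpin gene that the counts include are not reported here. The table's coordinates are of another build and are not given.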

Additional observations from a re-analysis of the deposited data

How the results depend on the processing

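No serpin call changed direction under any alternative. A pseudocount of 0.1 moved some counts of serpins past 2-fold, given here with the share over all genes. Against WT they became 2 for single-end AROM (6.71%), 5 for paired-end AROM (8.7%) and 10 for paired-end CERM (7.36%). For single-end BRCA against AROM the count became 5 (13.5%). For BRCA against CERM it became 7 in the single-end (10.1%) and 7 in the paired-end columns (9.37%). The share over all genes was higher in each of these as well. With no filter, the counts of serpins whose columns lay above or below all others moved for AROM, CERM and BRCA. They became 2 of 59 (18.7% of all genes), 5 (7.97%) and 16 (33.0%). With the filter applied within each layout, CERM had 0 (8.64%). With genes that passed through 1 genotype left out, CERM had 1 (8.6%). Median-ratio scaling gave 2 for AROM (28.2%). It shifted the all-gene median by 0.11 for paired-end AROM against WT, -0.11 for BRCA against WT, -0.15 for CERM against AROM and -0.22 for BRCA against AROM. Under that scaling Serpina1e (0.96) and Serpine2 (0.90) in paired-end BRCA against WT and Serpinb1a in paired-end BRCA against AROM (0.92) no longer passed. Leaving out genes at 0, summing shared symbols and averaging the WT columns kept each count within 1.5 times. Of 1368 values of single serpins, 1332 kept their side of the threshold, 4 lost it and 32 gained it. The cause of these changes was not tested.

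No paired analysis was possible because the columns are pooled and carry no replicate number. For the same reason no library was left out in turn. Depth is unknown, so no counting error can be set beside low values such as those of Serpina1e.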

Other observations

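Serpin rows left out of the counts, because their symbol is not their own, also hold clade A signal. The row of Serpina3f and Serpina3g together, copies of the antichymotrypsin-like cluster, had 1.60 and 1.53 FPKM in the AROM columns, 6.01 and 6.52 in the CERM columns and 9.56 and 9.20 in the BRCA columns, against 3.85 and 2.98 in the WT columns. BRCA and CERM lay above WT in both layouts and AROM below it. Of the rows that share the symbol Serpina3i, the first had 0.761 and 0.496 FPKM in the AROM columns, 1.56 and 1.94 in the CERM columns and 3.04 and 3.76 in the BRCA columns, against 0.276 and 0.363 in the WT columns, and the second 2.45 and 0.0148 FPKM in BRCA. That second row was at or near 0 in all 4 paired-end columns, against 0.266 to 2.45 FPKM in the single-end ones. The row of Serpina1a and Serpina1c together had 0.738 and 0.591 FPKM in the AROM columns, 0.312 and 0.0879 in the CERM columns and 0.129 and 0.0630 in the BRCA columns, against 0.977 and 0.130 in the WT columns.

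Serpina10, the inhibitor of coagulation factor Xa, was at 0.387 and 0.445 FPKM in BRCA and listed at 0 in the other 6 columns. It was noticed after its values were seen, and it lies under the filter.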
